A study of Mus musculus with 8 samples.

Results

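The nuclear genes of the respiratory chain were examined in the frontal cortex of mice with and without HAR123. They were taken as the protein-coding genes off the mitochondrial genome whose GENCODE M21 symbols begin with Nduf, Uqcr, Atp5 or Cox4 to Cox8, or are Sdha, Sdhb, Sdhc or Sdhd, with at least 80 raw counts summed over the 8 libraries. Of 55536 genes in the count table, 94 rows matched and 86 were kept. The 86 genes comprised 44 of complex I, 4 of complex II, 8 of complex III, 13 of complex IV and 17 of complex V. By role, 20 encode core subunits, 55 accessory subunits and 8 complex I assembly factors, and the other 3 are the muscle isoform gene Cox6a2, the supercomplex factor gene Cox7a2l and Atp5s, which encodes the coupling factor B of the ATP synthase. They lie on 19 chromosomes.

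RNA-seq of whole frontal cortex, depleted of ribosomal RNA, was available from 4 WT and 4 HAR123-KO libraries, all from mice aged 8 weeks. HAR123 is an enhancer within the Smg6 gene, and the HAR123-KO allele is a CRISPR-Cas9 deletion of its mouse counterpart in C57BL/6J mice, backcrossed to the same strain, with littermates as WT. The labels give neither the sex nor the animal behind each library, so the p-values measure the spread between these libraries. How many founders the line came from is not given in the sources used here.

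Oxidative phosphorylation carries electrons from NADH, through complex I, or from succinate, through complex II, to ubiquinone, then through complex III and cytochrome c to complex IV, where oxygen is reduced. Complexes I, III and IV pump protons across the inner mitochondrial membrane, and complex V uses the proton gradient to make ATP. Complex II is encoded wholly in the nucleus, whereas the others join nuclear subunits with subunits made from mitochondrial DNA. Neurons depend heavily on this pathway to restore ion gradients after firing.

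Many nuclear respiratory genes carry sites for nuclear respiratory factor 1 (NRF1) close to their start, so the letters of the promoters are shown before the expression values. RefSeq promoter windows (GRCm38.p6, 250 bases before to 50 bases after the start) were matched for 70 of the 86 genes. The letters GCGCNTGCG, which are most of the NRF1 motif, occurred on either strand in the windows of 25 of the 70 genes (35.7%), compared to 7.12% of all 27025 genes with a window. The stretches below run from 200 bases before to 10 bases after the start, 5′ to 3′ along the gene, and show for each complex the gene with the most matches in that stretch (the first by name where genes tied). All 5 genes lie on the minus strand. Capitals mark the matched letters on either strand.
Ndufb4: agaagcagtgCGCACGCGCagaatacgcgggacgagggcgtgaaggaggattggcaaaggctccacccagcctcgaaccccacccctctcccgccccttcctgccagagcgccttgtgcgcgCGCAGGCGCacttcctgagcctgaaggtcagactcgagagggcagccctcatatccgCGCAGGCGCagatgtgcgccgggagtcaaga
Sdha: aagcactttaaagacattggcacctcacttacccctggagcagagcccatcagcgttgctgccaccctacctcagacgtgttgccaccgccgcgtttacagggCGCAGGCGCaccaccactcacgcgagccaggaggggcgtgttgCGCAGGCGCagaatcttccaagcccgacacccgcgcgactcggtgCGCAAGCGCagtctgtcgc
Uqcr10: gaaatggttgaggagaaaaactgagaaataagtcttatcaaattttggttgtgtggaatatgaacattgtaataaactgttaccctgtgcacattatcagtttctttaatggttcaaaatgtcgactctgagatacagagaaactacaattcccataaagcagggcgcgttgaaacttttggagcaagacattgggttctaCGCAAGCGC
Cox6a1: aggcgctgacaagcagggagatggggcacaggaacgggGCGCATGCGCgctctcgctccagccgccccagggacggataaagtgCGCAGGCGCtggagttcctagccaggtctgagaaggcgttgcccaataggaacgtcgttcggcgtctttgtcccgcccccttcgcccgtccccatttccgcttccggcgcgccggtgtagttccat
Atp5g2: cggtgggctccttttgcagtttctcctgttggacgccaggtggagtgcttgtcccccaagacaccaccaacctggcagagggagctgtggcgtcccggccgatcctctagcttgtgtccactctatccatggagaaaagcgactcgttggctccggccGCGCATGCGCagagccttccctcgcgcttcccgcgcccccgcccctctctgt

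These stretches lie at chr16:37654359-37654568, chr13:74350231-74350440, chr11:4704335-4704544, chr5:115348949-115349158 and chr15:102671038-102671247, respectively. Ndufb4 (an accessory subunit of complex I) and Sdha (the flavoprotein of complex II) each held 3 matches. Cox6a1 (a subunit of complex IV) also held 3, of which 2 overlap on opposite strands, and the 2 matches of Atp5g2 (a subunit of the membrane ring of complex V) overlap in the same way. The single match of Uqcr10 (a small subunit of complex III) lies within its first transcribed bases.

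Other letters were searched in the same 70 genes, also on both strands. AAGATGGCG, a longer form of the Yin Yang 1 motif, was in 8 genes (11.4%, against 1.64% of all genes), and Ndufs6 held both these letters and those of NRF1. CCGGAAG, the Ets-type core that GA-binding protein binds, was in 18 genes (25.7%, against 9.93%). TCAAGGTCA, the oestrogen-related receptor element, was in 2 genes (2.86%, against 0.466%). The CCAAT-box letters CCAATC were in 16 genes (22.9%, against 18.2%), and TATAAA was in 5 genes (7.14%, against 15.7%). The windows of the respiratory genes had a median GC content of 58.7%, compared to 52.7% over all windows, and the GC-rich letters were not adjusted for it.

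The effective depth was far below the library totals of 13528251 to 17051001 counts, because the ribosomal-RNA-overlapping gene Gm42418 held most of them. Counts on nuclear protein-coding genes, with Lars2 left out, were 2786320 to 3732172 per library. The 86 respiratory genes together held 18636 to 23916 raw counts. Marker lists of several cell types differed between the genotypes. Choroid plexus markers were higher in HAR123-KO in 10 of 10 genes (summed normalized counts of 960.5 to 1009 in WT and 1880.2 to 1994 in HAR123-KO), although Aqp1, Kcne2, Otx2 and Sostdc1 had a count of 0 in at least 1 library. Striatal projection neuron markers were higher in 11 of 12 genes (6325 to 6520 and 8277 to 8384) and oligodendrocyte markers in 6 of 8 (15080.4 to 15573 and 17135 to 17466). Astrocyte markers were higher in 2 of 10 genes (23491 to 24178 and 21809.9 to 22437), endothelial markers in 0 of 8 (459 to 489.7 and 363 to 384) and erythrocyte markers in 0 of 5 (1523 to 1681 and 1238 to 1302). Neuronal markers were higher in 5 of 11 genes, with a median log2 fold change of 0.00 (29242 to 29886 and 28831 to 29203). In whole tissue, fewer cells of a type and less RNA per cell cannot be told apart, and the part of these cell types in the values below was not tested.

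The transcript levels of the respiratory genes spanned a 96.2-fold range when normalized counts were divided by exon length. Normalized counts are raw counts divided by DESeq2 size factors. The median level was 108 normalized counts per kb of exon, compared to 24.7 for 11406 other nuclear coding genes that were tested. These levels are means of all 8 libraries. Complex IV had the highest median (193 per kb), followed by complexes III (142), V (106), II (106) and I (90.7). The 6 genes with the highest level per kb were Cox8a (822), Cox6a1 (677), Atp5a1 (572), Cox4i1 (527), Atp5b (521) and Cox6b1 (507). Cox8a, Cox6a1, Cox4i1 and Cox6b1 encode subunits that surround the catalytic core of cytochrome c oxidase, and Atp5a1 and Atp5b encode the alpha and beta subunits of the catalytic head of the ATP synthase. The same 6 genes led when the length of the principal transcript was used, an alternative chosen after seeing the data, but in another order with Atp5b first (1151 per kb). The ranks of the 86 genes by the 2 lengths correlated at a Spearman rho of 0.758 across genes, so single ranks depend on the length taken.

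**Figure D1:**
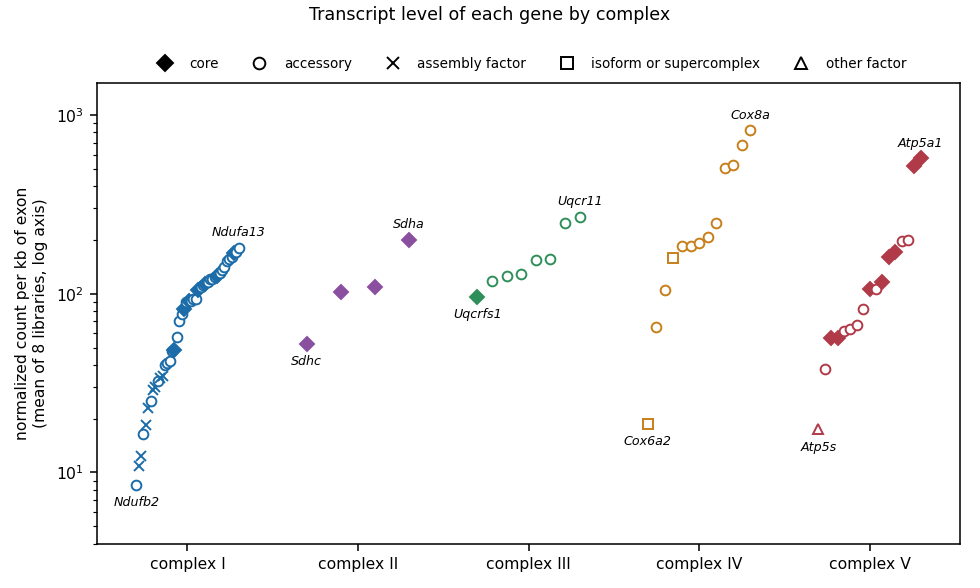
Each symbol is 1 of the 86 genes, placed by complex (horizontal axis) and by its mean normalized count per kb of exon over 8 libraries (vertical, log axis), with the symbol shape giving its role. Complex I ran from Ndufb2 (8.54) to Ndufa13 (180.2), and complex IV from Cox6a2 (18.8) to Cox8a (822).

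Levels within a complex were not uniform, although the subunits are built into the protein complex in fixed proportion. The 7 core subunits of complex I ranged from 48.6 to 169 per kb of exon (3.48-fold) and by 1.78-fold with the length of the principal transcript. Its 8 assembly factors, which help to build the complex and then leave it, had a median of 25.9 per kb against 106 for the core. The 4 genes of complex II differed by 3.83-fold, from Sdhc (a membrane anchor, 52.4 per kb) to Sdha (201 per kb). Complex III had the narrowest range, 2.79-fold, with Uqcr11 (268) and Uqcr10 (249) at its top and Uqcrfs1, the Rieske iron-sulphur protein, at its bottom (96.3).

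Isoforms known from muscle and other tissues were at low counts or below the minimum. In WT, Cox6a1 held 464 ± 23.9 normalized counts and its muscle counterpart Cox6a2 held 11.3 ± 3.55 (SD, n = 4 each). Cox6a2 was the kept gene nearest to the minimum. Cox4i1 held 797 ± 17.5 in WT, and Cox4i2, the form known from lung and low oxygen, had 27 raw counts in all and was not kept. Cox7a1 (27 raw counts), Ndufa4l2 (20), the testis form Cox6b2 (18) and Cox8b (3) also fell below the minimum, as did Cox7b2 (7), Cox8c (3) and a further Atp5o identifier (0). Ndufaf6, with a WT mean of 14.8 ± 2.70 (SD, n = 4), was the next gene above it. The 3 genes that encode the identical mature c subunit of the ATP synthase, Atp5g1, Atp5g2 and Atp5g3, held 39.5%, 23.8% and 36.7% of their joint counts in WT and 39.1%, 26.1% and 34.8% in HAR123-KO.

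Deletion of HAR123 left no nuclear respiratory gene past the threshold. DESeq2 gave an adjusted p under 0.05 to 0 of the 84 genes with an adjusted p, whereas 215 of 12758 genes tested (1.69%) were called, 38 of them (0.298%) with an absolute log2 fold change over 0.5. The quasi-likelihood test of edgeR and limma-voom also called 0 of the 86, against 2.28% and 2.0% of the genes tested. The lowest adjusted p in DESeq2 was 0.287, for Ndufb5. An unadjusted p under 0.05 was reached by 4 of 86 genes (4.65%) in DESeq2, against 8.78% of the genes tested, by 9 in edgeR, against 12.8%, and by 9 in limma-voom, against 12.7%. Ndufaf6 and Cox6a2 were too low to be given an adjusted p.

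The fold changes were small and lay on both sides of 0. The median log2 fold change (HAR123-KO over WT) of the 86 genes was 0.01, the interquartile range ran from -0.07 to 0.07, and the range was -0.25 (Ndufaf5) to 0.39 (Ndufaf2). There were 47 genes higher in HAR123-KO (54.7%, against 49.4% of the genes tested) and 39 lower. In 31 genes the change exceeded 0.1 in size, and in 8 it exceeded 0.2. The 95% interval of the log2 fold change lay within 0.5 of 0 for 78 of the 86 genes and within 0.25 for 33. The other 8 were Atp5s, Cox6a2, Ndufa1, Ndufaf1, Ndufaf2, Ndufaf5, Ndufaf6 and Ndufaf8, none with a mean above 62 normalized counts, and their intervals reached a change of that size.

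**Figure D2:**
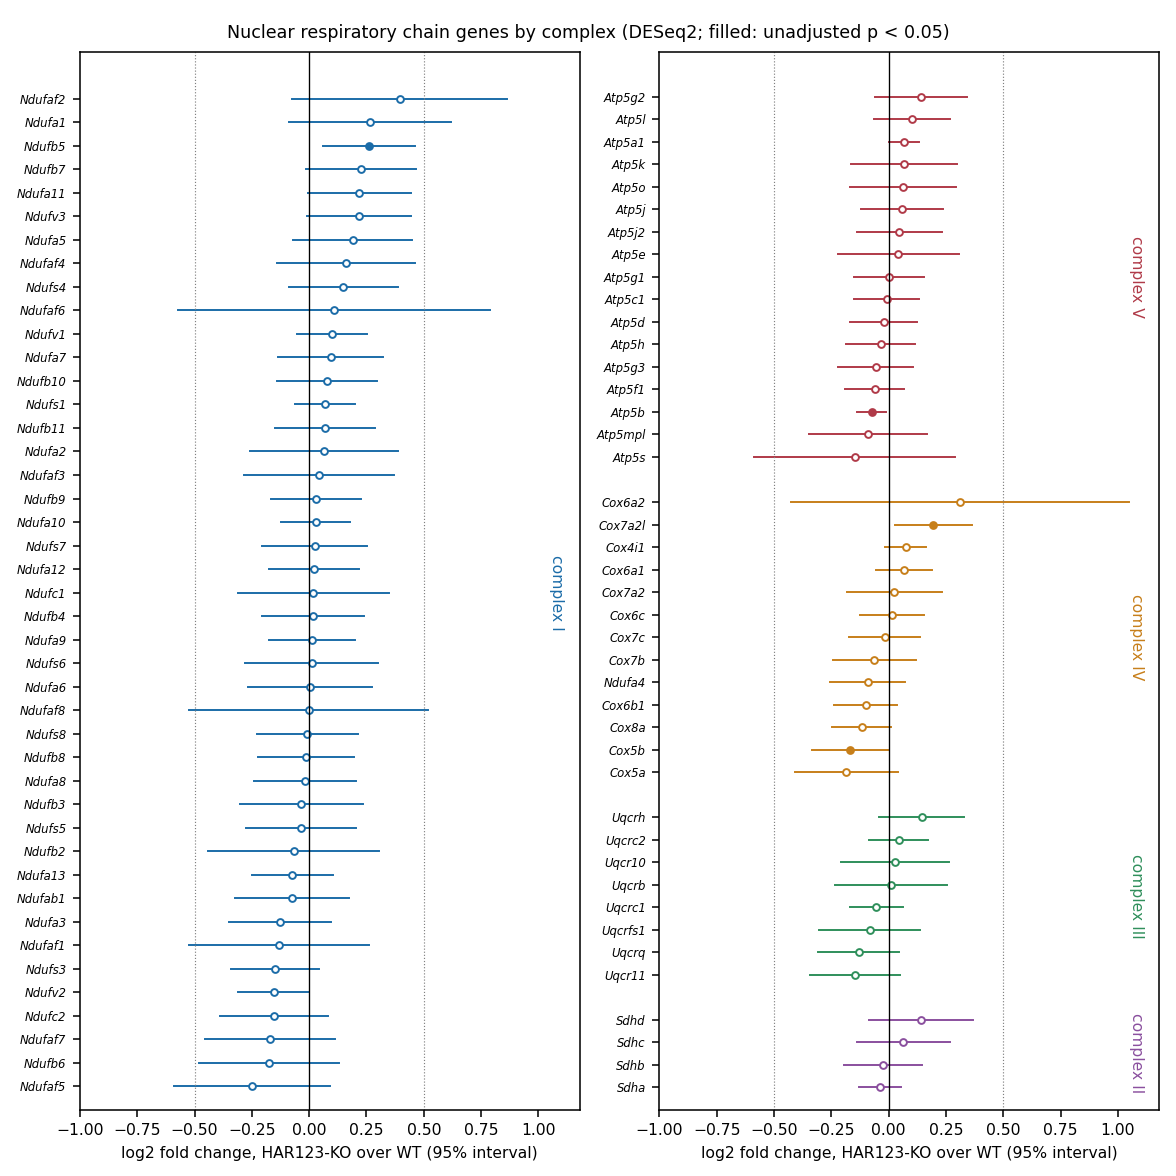
Each row is 1 gene, for 85 of the 86 genes, grouped by complex, with its log2 fold change in HAR123-KO over WT (horizontal axis, DESeq2) and 95% interval. Filled points mark the 4 genes with an unadjusted p under 0.05, and the wide intervals belong to genes with few counts, such as Cox6a2 and Ndufaf6.

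The summed level of each complex also differed between genotypes by less than its spread between libraries. All 86 genes together held 20981, 20333, 20264 and 20964 normalized counts in the WT libraries and 20384, 20644, 20393 and 20974 in the HAR123-KO libraries. The HAR123-KO values lay within the WT range, and the ratio of the means was 0.998 ± 0.0116 (SE). The ratio was 1.012 ± 0.0198 for complex I, 0.994 ± 0.0151 for complex II, 0.983 ± 0.0191 for complex III, 0.988 ± 0.0214 for complex IV and 0.998 ± 0.00962 for complex V. The groups overlapped for each of the 5 complexes. Median log2 fold changes were 0.02, 0.02, -0.02, -0.02 and 0.00 for complexes I to V, compared to 0.00 over all genes tested. As a share of nuclear coding counts with Lars2 left out, the respiratory genes made up 0.656% ± 0.0143 (WT) and 0.654% ± 0.00909 (HAR123-KO, SD over 4 libraries each).

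**Figure D3:**
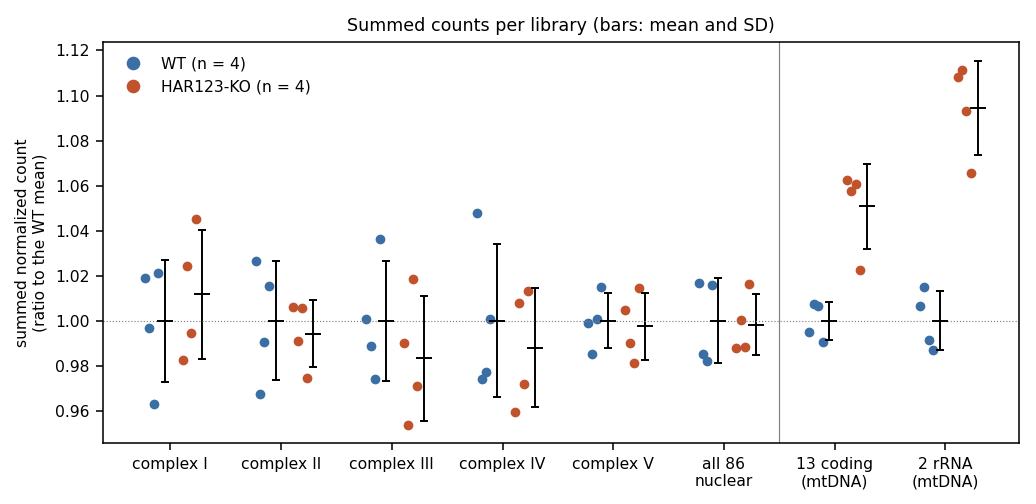
Summed normalized counts per library, each divided by the WT mean of its group (vertical axis), for the nuclear genes of each complex, all 86 nuclear genes, and the 13 protein-coding genes and 2 ribosomal RNAs of mitochondrial DNA. Blue points are WT and orange points HAR123-KO libraries (n = 4 each), with the mean and SD in black. The nuclear sums overlap between genotypes, and the mitochondrially encoded sums do not.

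The ranges of the share of counts held by each complex overlapped between genotypes. Complex V held 35.0% ± 0.523 (WT) and 35.0% ± 0.426 (HAR123-KO) of the respiratory counts, with the SD over 4 libraries. Complex I held 28.7% ± 0.384 and 29.1% ± 0.451, and complex IV 20.4% ± 0.427 and 20.2% ± 0.321, respectively. Complex III held 9.22% ± 0.144 and 9.09% ± 0.348, and complex II 6.65% ± 0.0864 and 6.62% ± 0.188. Atp5a1 and Atp5b alone accounted for 19.5% ± 0.439 and 19.4% ± 0.306.

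Complex I, the entry point for electrons from NADH, had the most genes. Of its 7 nuclear core subunits, which carry the flavin and iron-sulphur clusters, 3 were higher and 4 lower in HAR123-KO, and 0 passed the test. Ndufs1, the largest subunit, held 373, 384, 392 and 382 normalized counts in WT and 418, 378, 389 and 425 in HAR123-KO, with a log2 fold change of 0.07 ± 0.07 (SE). Ndufv1, which binds NADH and flavin, held 278, 299.6, 265 and 305 in WT and 334, 281, 301 and 312 in HAR123-KO (0.10 ± 0.08). For both genes the highest library was HAR123-KO, and the groups overlapped.

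Ndufv2, the partner of Ndufv1 in the NADH-oxidizing module (chr17:66078638-66101559), was the only 1 of the 86 genes whose HAR123-KO libraries all lay below all WT libraries (1.16%, against 3.65% of the genes tested). Its counts were 286, 278, 284 and 292 in WT and 245, 264, 243 and 273 in HAR123-KO. The log2 fold change was -0.15 ± 0.08 (SE), with an unadjusted p of 0.0518 and an adjusted p of 0.574 in DESeq2.

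HAR123-KO libraries averaged higher in 19 of the 29 accessory subunits of complex I. Their median log2 fold change was 0.02, and the ratio of their summed counts was 1.026 ± 0.0198 (SE). Ndufb5, a subunit of the membrane arm (chr3:32736990-32751566), held 152, 136, 153 and 152 counts in WT and 175, 175, 194 and 166 in HAR123-KO. All HAR123-KO libraries lay above all WT libraries, and the log2 fold change was 0.26 ± 0.10 (SE) with a 95% interval of 0.06 to 0.46. Its adjusted p was 0.287 in DESeq2, 0.0937 in edgeR and 0.121 in limma-voom. Exons of Ndufb5 overlap those of Mrpl47 on the opposite strand, and reads of the 2 genes cannot be told apart if strand was not used in counting.

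In 6 genes (6.98%, against 4.02% of the genes tested) all HAR123-KO libraries exceeded all WT libraries. They were Ndufb5, Ndufb7, Ndufs4, Cox4i1, Cox7a2l and Atp5a1. Ndufb7, which faces the intermembrane space, held 105, 107, 106 and 101 counts in WT and 109.6, 124, 122 and 134 in HAR123-KO (log2 fold change 0.23 ± 0.12, adjusted p = 0.611 in DESeq2). Ndufs4, whose loss is known to cause a Leigh-like brain disease in mice, held 107, 112, 108 and 103 in WT and 121, 125, 116 and 116 in HAR123-KO (0.15 ± 0.12, adjusted p = 0.847 in DESeq2). In both the gap between the groups was small beside the values, and neither passed the test.

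Ndufa1, a small subunit encoded on the X chromosome, was the most variable between libraries of 1 genotype, among genes averaging 50 normalized counts or more. It held 48.4, 76.2, 44.1 and 46.0 in WT and 63.5, 74.2, 61.6 and 57.4 in HAR123-KO. A single WT library lay above all HAR123-KO libraries, and the log2 fold change was 0.26 ± 0.18 (SE) with all libraries and 0.48 without that library, where the adjusted p was 0.546 in DESeq2. The accessory subunits with the highest level per kb, Ndufa13 (180.2) and Ndufb9 (172), had log2 fold changes of -0.07 ± 0.09 and 0.03 ± 0.10.

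Among the 8 assembly factors, 4 were higher and 4 lower, and their summed counts had a ratio of 0.988 ± 0.0380 (SE). Ndufaf5, a factor that modifies Ndufs7 during assembly, held 70.9, 80.3, 59.3 and 58.8 counts in WT and 45.0, 58.0, 50.2 and 73.4 in HAR123-KO. Those groups overlapped, and the log2 fold change was -0.25 ± 0.17 (SE). Leaving out HAR123-KO replicate 4 gave -0.39, and leaving out HAR123-KO replicate 1 or WT replicate 2 gave -0.16 and -0.15. Ndufaf2 had the largest point estimate of the 86 genes, 0.39 ± 0.24, from 31.5, 27.8, 28 and 24.6 counts in WT and 27.6, 51.3, 32.6 and 35.1 in HAR123-KO. A single HAR123-KO library (replicate 2) stood above the rest, and without it the log2 fold change of Ndufaf2 was 0.19.

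In complex II, which is also the succinate dehydrogenase of the tricarboxylic acid cycle, 2 genes were higher and 2 lower. Sdha held 864, 825, 829 and 841 counts in WT and 817, 797, 845 and 807 in HAR123-KO, giving a log2 fold change of -0.04 ± 0.05 (SE) with a 95% interval of -0.13 to 0.05. The iron-sulphur subunit Sdhb held 251, 220.3, 264 and 247 in WT and 241, 273, 222 and 231 in HAR123-KO (-0.03 ± 0.09). The groups overlapped in both genes. The membrane anchors Sdhc and Sdhd had log2 fold changes of 0.06 ± 0.10 and 0.14 ± 0.12. Single libraries set some of these signs. Sdhc had -0.01 without WT replicate 3 and 0.14 without WT replicate 4. Sdhb had 0.01 without WT replicate 3 and 0.02 without HAR123-KO replicate 3.

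In complex III, the cytochrome bc1 complex, 4 genes were higher and 4 lower. Uqcrfs1 held 129, 131, 139.8 and 139 counts in WT and 127, 121, 127 and 136 in HAR123-KO (log2 fold change -0.08 ± 0.11). The 2 large core proteins Uqcrc1 and Uqcrc2, which anchor the complex on its matrix side, moved in opposite directions within their error, at -0.05 ± 0.06 and 0.04 ± 0.07. Uqcrh, the hinge protein that binds cytochrome c1, had the largest log2 fold change of the complex, 0.14 ± 0.09, from 199, 182, 175 and 172 counts in WT and 203, 188, 212 and 199 in HAR123-KO. Uqcr11 had the lowest, -0.15 ± 0.10, from 198, 169, 170.3 and 186 in WT and 159, 175, 154 and 165 in HAR123-KO. The ranges of both genes overlapped between genotypes.

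Complex IV, cytochrome c oxidase, held the genes with the largest excess spread. Replicate variance over that of counting, as chi-square per degree of freedom (1 for counting error alone), was 2.28 among the HAR123-KO libraries for its 13 genes, compared to 1.28 for all 86 genes. Cox5b, a zinc-binding subunit (chr1:36691449-36693681), held 346, 322, 314 and 318 counts in WT but 248, 309, 256 and 344 in HAR123-KO. Thus 2 HAR123-KO libraries lay within or near the WT range and 2 well below it. Its log2 fold change was -0.17 ± 0.08 (SE), with an unadjusted p of 0.0439 and an adjusted p of 0.539 in DESeq2. The estimate was -0.26 without HAR123-KO replicate 4, -0.10 without HAR123-KO replicate 1 and -0.11 without HAR123-KO replicate 3.

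Cox7a2l, also known as SCAFI, tethers complex III to complex IV in supercomplexes (chr17:83501918-83517330). It held 226, 225, 221 and 199 counts in WT and 241, 256, 261 and 239 in HAR123-KO, without overlap. The log2 fold change was 0.20 ± 0.09 (SE), with a 95% interval of 0.03 to 0.36 and an adjusted p of 0.409 in DESeq2, 0.157 in edgeR and 0.188 in limma-voom. Its paralog Cox7a2, a regular subunit of the oxidase, had a log2 fold change of 0.03 ± 0.11.

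Cox4i1, the largest nuclear subunit and the one through which ATP inhibits the enzyme (chr8:120668222-120674207), held 815, 808, 779.5 and 784 counts in WT and 844, 817, 839 and 853 in HAR123-KO. The groups did not overlap but differed by a log2 fold change of only 0.07 ± 0.05 (SE), with an adjusted p of 0.722 in DESeq2. Its exons overlap Emc8 on the opposite strand. Cox5a had the lowest log2 fold change of the complex, -0.19 ± 0.11, from 168, 129.7, 130.5 and 153 counts in WT and 126, 122, 135 and 125 in HAR123-KO. Without WT replicate 1 it was -0.11, and Cox5b was then the lowest, at -0.14. The abundant Cox8a, Cox6a1 and Cox6b1 had log2 fold changes of -0.12 ± 0.07, 0.07 ± 0.06 and -0.10 ± 0.07, and without WT replicate 1 both Cox8a and Cox6b1 had -0.05. Ndufa4, once assigned to complex I and now placed in complex IV, had -0.09 ± 0.08.

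In complex V, the 2 respiratory genes with the most counts, not corrected for length, had estimates of opposite sign. Atp5a1 (chr18:77773729-77782869) held 1694, 1734, 1795 and 1788 counts in WT and 1831, 1821, 1851 and 1841 in HAR123-KO. Its exons overlap Haus1 on the opposite strand. The groups did not overlap, and the log2 fold change was 0.07 ± 0.03 (SE) with an unadjusted p of 0.0501 and an adjusted p of 0.568 in DESeq2. Atp5b (chr10:128083273-128090391) held 2297, 2229, 2268 and 2254 in WT and 2122, 2088, 2105 and 2285 in HAR123-KO, where 3 libraries lay below the WT range and 1 within it. Its log2 fold change was -0.07 ± 0.03 (SE), with a 95% interval of -0.14 to -0.01, an unadjusted p of 0.0239 and an adjusted p of 0.422 in DESeq2. Both intervals exclude a change of 0.15 on the log2 scale in either direction.

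**Figure D4:**
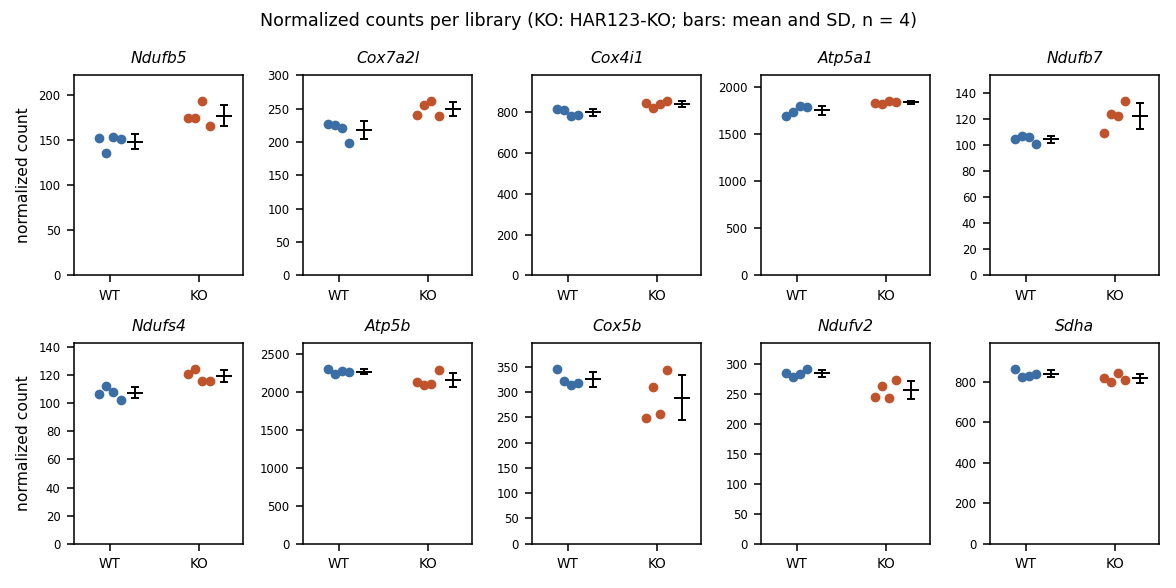
Normalized counts per library (vertical axes, from 0) for 10 genes in WT and HAR123-KO, with the mean and SD (n = 4). They are the 7 genes whose groups do not overlap, Atp5b and Cox5b, whose groups overlap but whose unadjusted p was under 0.05, and Sdha for comparison. In each panel the gap between genotypes is small beside the level itself.

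The genes for the c ring, which turns as protons pass, were Atp5g1 (0.00 ± 0.08), Atp5g2 (0.14 ± 0.10) and Atp5g3 (-0.06 ± 0.08 on the log2 scale). Atp5g2 held 162, 158, 189 and 165 counts in WT and 184, 211, 161 and 190.4 in HAR123-KO, and the groups overlapped. Without HAR123-KO replicate 2 its log2 fold change was 0.08. Atp5g1, on chromosome 11, was the respiratory gene nearest to Smg6, at a distance of 20.9 Mb. The small membrane subunit gene Atp5mpl had the lowest log2 fold change of the complex among genes averaging 50 or more normalized counts, at -0.09 ± 0.13. Without WT replicate 1 it was -0.16, and without WT replicate 3, WT replicate 4 or HAR123-KO replicate 4 another gene was lowest.

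Genes of the pathway outside these symbols were examined in the same fit. Among 7 carriers and catalytic subunits, including cytochrome c (Cycs, -0.02 ± 0.08) and cytochrome c1 (Cyc1, 0.03 ± 0.09), 2 were higher and 5 lower, and 0 were called by DESeq2. The ATP synthase inhibitor Atpif1 had a log2 fold change of 0.10 ± 0.08. Among 38 further assembly factors, 20 were higher, the median was 0.01 and 0 were called. The 16 enzymes of the tricarboxylic acid cycle and pyruvate dehydrogenase had a median of -0.01, with 6 higher and 0 called, and the 77 mitochondrial ribosomal proteins a median of -0.02, with 34 higher and 0 called. At an unadjusted p under 0.05, DESeq2 gave 0 genes in each of these 4 lists, against 8.78% of the genes tested. In edgeR these were 1 enzyme of the cycle and 2 mitochondrial ribosomal proteins, against 12.8%. With limma-voom they were 2 mitochondrial ribosomal proteins, against 12.7%. Neither edgeR nor limma-voom called any gene of the 4 lists. Of all genes tested, DESeq2 called 1.69%, edgeR 2.28% and limma-voom 2.0%.

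Of the 16 regulators of mitochondrial biogenesis and transcription, 4 were higher and 12 lower, around a median of -0.07 on the log2 scale. DESeq2, edgeR and limma-voom called 0 of them, against 1.69%, 2.28% and 2.0% of the genes tested. In DESeq2, 1 of the 16 had an unadjusted p under 0.05, against 8.78% of the genes tested. It was Polrmt, the mitochondrial RNA polymerase (-0.27 ± 0.14, adjusted p = 0.535). NRF1 itself (Nrf1, -0.10 ± 0.15), Gabpa (-0.21 ± 0.14) and Tfam, which packages and transcribes mitochondrial DNA (-0.19 ± 0.15), had negative estimates, whereas the coactivator Ppargc1a had 0.13 ± 0.09. The summed counts of the 16 genes were 1697 to 1728 in WT and 1598 to 1688 in HAR123-KO. The 25 respiratory genes with the NRF1 letters in their window had a median of 0.02 on the log2 scale (15 higher), and the 45 with a window but without the letters had -0.01 (21 higher).

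All 13 subunits encoded by mitochondrial DNA were higher in HAR123-KO, by a median of 0.08 on the log2 scale (0.04 to 0.14), and 7 were called by DESeq2. The largest was mt-Atp8 (0.14 ± 0.03, adjusted p = 0.00299 in DESeq2), and mt-Co1, the catalytic subunit of complex IV, had 0.07 ± 0.02 (adjusted p = 0.00758). The mitochondrial ribosomal RNAs mt-Rnr1 and mt-Rnr2 were higher by 0.16 ± 0.02 and 0.11 ± 0.02, and both were called. The number of the 13 called ranged from 2 to 10 when single libraries were left out, was 4 in edgeR and 10 in limma-voom, and was 0 with the replicate number as a block. Counts of the 13 genes per count of the 86 nuclear genes ran from 8.67 to 9.12 in WT and from 8.95 to 9.57 in HAR123-KO, and overlapped through 1 HAR123-KO library, replicate 4. The share of all counts on Gm42418 was 56.8% to 58.0% in WT, 55.1% to 55.7% in HAR123-KO replicates 1 to 3 and 57.4% in replicate 4, and its part in the mitochondrial values was not tested. The difference between the 2 sets of genes was not tested. Cytosolic ribosomal proteins, which like the respiratory subunits are encoded by short abundant mRNAs, were higher in 66 of 79 genes with a median of 0.09, and 2 were called by DESeq2, against 1.69% of the genes tested. Of 478 short coding genes, 248 were higher and 230 lower with a median of 0.00, and 15 were called, 7 higher and 8 lower.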

How the data were processed

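Frontal cortex RNA-seq covered 8 libraries, 4 per genotype, grouped by their titles. The deposited values are raw counts. The authors aligned reads to GRCm38 with STAR 2.5.2b and summed them over the exons of a gene with featureCounts, per the submitters' processing notes and the study's methods. The library kit keeps strand, but the settings for strand and for reads with several matches at counting are not given in the sources used here. Exons of 5 of the 86 genes overlap another gene on the same strand and those of 28 overlap one on the opposite strand. All 55536 identifiers were found in GENCODE M21 with the same start and end, which gave symbols and types. There were 0 unused columns per sample. A further 13 nuclear rows with matching symbols were of other types, such as pseudogenes, and were left out, and reads shared with such copies could be split between them.

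The members and gene lists were chosen with earlier results of these data known. Genotypes were compared over the whole table with the Wald test of DESeq2 1.42.0 (R 4.3.3, median-of-ratios size factors, Benjamini-Hochberg adjustment, independent filter tuned to 0.1), and a call was an adjusted p under 0.05. Alternatives were edgeR 4.0.16, limma-voom (limma 3.58.1), other size factors and filters, a block for the replicate number, fits without single libraries, a minimum of 400 counts, leaving out assembly factors, and counting Ndufa4 with complex I. The fitting script was first tested on simulated data. Genes named individually were core subunits, isoform pairs, the 2 highest per kb and the extremes of fold change in each complex (mean of at least 50), the genes next to the minimum count, the most and least variable, and any past the threshold. Ndufb2, Ndufb4, Ndufb5, Ndufb7, Ndufs4, Ndufs6, Ndufv2, Ndufaf1, Ndufaf2, Ndufaf8 and Atp5s were named after their values were seen. 1 core subunit of complex I is counted in the totals but is not reported here on its own. Intervals are the estimate plus or minus 1.96 SE. All errors cover only the spread between these libraries, since the animal behind each library is not given. Reads carried no molecular tags.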

Additional observations from a re-analysis of the deposited data

Results flagged for a closer look

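Among 114 groups of 4 libraries checked for 1 library set apart by Dixon's ratio, 7 stood out, and chance alone flags about 1 in 20 (5.7 groups). The genes checked included those named after their values were seen, among them the flagged Ndufb4, Ndufb5, Ndufaf1 and Atp5s. The number expected by chance is therefore only a rough guide. WT replicate 2 held 76.2 normalized counts of Ndufa1, compared to 44.1 to 48.4 in the other WT libraries. WT replicate 4 held 186.1 of Ndufb4, compared to 132 to 137 in the others, and 51.4 of Atp5s, compared to 31.5 to 34.7. WT replicate 2 held 135.9 of Ndufb5, below the 152 to 153 of the others. HAR123-KO replicate 3 held 44.9 of Ndufaf1, compared to 39.9 to 40.4. HAR123-KO replicate 4 held 187700 summed normalized counts of the 13 protein-coding mitochondrial genes, compared to 194131 to 194988 in its 3 fellow libraries. Its share of counts on mitochondrial ribosomal RNA was 10.04%, compared to 10.8% to 10.9%. Its share on Gm42418 was 57.4%, compared to 55.1% to 55.7%, and the part of that share in these values was not tested. Both mitochondrial values of HAR123-KO replicate 4 were still above those of all WT libraries. Without this library, DESeq2 called 10 of the 13 mitochondrial genes and 0 of the 70 nuclear respiratory genes that then had an adjusted p. Over all genes, 185 of the 7146 with an adjusted p were called in that fit.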

How the results depend on the processing

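Of the nuclear respiratory genes, 0 were called under each of the 17 alternatives fitted anew, including those that left out single libraries. Keeping only genes with at least 400 counts or leaving out assembly factors took subsets of the main fit, so 0 calls were certain there. The smallest adjusted p of any member was 0.0752 (Atp5b, without HAR123-KO replicate 4). The number with an unadjusted p under 0.05 ranged from 0 to 9, and was 0 without HAR123-KO replicate 3 and with the replicate block. The median log2 fold change was -0.01 to 0.03 when single libraries were left out, with 40 to 48 genes higher. With library totals as size factors, the median over all genes tested shifted from 0.00 to 0.04, that of the 86 genes moved to 0.050 (59 genes higher) and that of complex II to 0.058. The other medians by complex moved by less than the spread between libraries. Of 748 values of the 44 genes named, those named after their values were seen included, 741 stayed within 1 SE, and 13 genes changed sign in at least 1 setting, none with a size above 0.15 with all libraries. In every complex, another gene (of those averaging 50 or more counts) had the lowest log2 fold change in at least 1 fit without a single library. The log2 fold change of Cox5b was -0.26 to -0.10 when single libraries were left out.

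Same-numbered WT and HAR123-KO libraries did not deviate together (correlations across genes of -0.0154 to 0.0177). This check cannot exclude pairing, because most of the spread within a genotype was counting error. For 11406 other nuclear coding genes, chi-square per degree of freedom was 1.28 in WT and 1.30 in HAR123-KO. With a replicate block, 22 genes of the whole table were called in place of 215, 0 respiratory genes were called at either limit, their median was 0.01 and 47 were higher. The medians by complex under the block were -0.02 to 0.02. The 8 genes whose intervals reached 0.5 averaged at most 62 normalized counts.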
